A study of Homo sapiens with 20 samples.

Results

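The E2F transcription factors and the pocket proteins that hold them in check were followed through EGF-induced epithelial-mesenchymal transition in MDA-MB-468 cells. The genes were taken by name and comprised E2F1, E2F2, E2F3, E2F4, E2F5, E2F7, E2F8, RB1, RBL1 and RBL2, which makes 10 of the 60271 genes counted. MDA-MB-468 is an established epithelial line from a triple negative breast cancer with very high EGFR. All cells were serum-starved, stated as 24 h before EGF, and were then left untreated (control, CTR) or given 50 ng/mL EGF. EGF lasted 12 h, 24 h, 48 h or 72 h, with all groups seeded and harvested together, per the labels. With a shared seeding and harvest, time in EGF cannot be told apart from time in culture, serum-free or not, before EGF. Each of the 5 groups had 4 biological replicates, giving 20 libraries of bulk poly(A) RNA-seq. The replicates came from a single cell line, so the p-values below describe the spread between these wells only. The same 4 control libraries entered every comparison with the control.

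E2F proteins bind promoters of cell cycle genes, mostly as dimers with a DP protein. E2F1, E2F2 and E2F3 are known as activators of genes for DNA replication and are bound and silenced by RB, the product of RB1. E2F4 and E2F5 act mainly as repressors in resting cells together with p107 (RBL1) or p130 (RBL2), the latter as part of the DREAM complex. E2F7 and E2F8 are atypical E2Fs that need neither DP partners nor pocket proteins and repress E2F targets late in S phase. Phosphorylation of the pocket proteins by cyclin-CDK complexes releases the E2Fs. MDA-MB-468 is known as a line without functional RB.

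Several of these genes are themselves known E2F targets, so their promoters were searched for the E2F-type words TTTCGCG and TTTGGCG on both strands, whose matches did not overlap. The windows were RefSeq sequences on GRCh38.p14 running from 250 bases before to 50 bases after a gene's start. At least 1 of the words was present in 3.19% of all 35116 windows. A total of 8 of the 10 genes had a window, 10 windows in all, and 4 of these windows held a match. These were windows of E2F1, E2F2, E2F3 and RBL1. The stretches that hold the matches are shown 5′ to 3′ on the gene's strand, with the matched words in capitals, at chr20:33686386-33686442 (minus strand, E2F1), chr1:23531249-23531310 (minus strand, E2F2), chr6:20401820-20401866 (plus strand, E2F3) and chr20:37095998-37096043 (minus strand, RBL1).
E2F1: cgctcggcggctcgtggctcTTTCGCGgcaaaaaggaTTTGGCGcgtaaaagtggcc
E2F2: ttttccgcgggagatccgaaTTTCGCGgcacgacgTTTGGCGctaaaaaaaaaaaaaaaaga
E2F3: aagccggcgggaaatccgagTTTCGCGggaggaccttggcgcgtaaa
RBL1: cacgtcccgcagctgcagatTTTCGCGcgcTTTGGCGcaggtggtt
All 4 stretches lay upstream of the RefSeq start. The E2F1 stretch reached into the first exon of the longer GENCODE 29 gene model. E2F1, E2F2 and RBL1 held both words, 1 after the other, and E2F3 held only TTTCGCG. The windows of E2F4, E2F7, RB1 and RBL2 and the other window of E2F3 (chr6:20403364-20403663) held no match. The windows of RB1 and RBL2 and this other window of E2F3 lay wholly inside the GENCODE 29 gene. For RB1 and RBL2 the sequence before the gene's start was thus not searched. E2F5 and E2F8 had no entry. A match is a description of the sequence, and binding was not measured.

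Library depth ranged from 15611961 to 25856953 counts. The epithelial markers EPCAM, CDH1, KRT8, KRT18, KRT5, KRT17 and EGFR were present in every library, with EGFR at normalised read counts of 3360 to 12100 on the CPM scale. PGR had 0 counts throughout, and ESR1 did not exceed 6.53 CPM, nor ERBB2 24.6 CPM. The summed fibroblast markers were at 5.12 to 7.90 CPM in the controls and at 13.1 to 15.0 CPM after 72 h, nearly all of it COL1A1, while COL1A2, COL3A1 and LUM had at most 1 count in any library. The summed leukocyte markers were at 2.77 to 3.91 CPM in the controls, 1.48 to 1.85 CPM at 12 h, 2.82 to 4.00 CPM at 24 h, 5.74 to 8.31 CPM at 48 h and 5.36 to 6.26 CPM at 72 h. The endothelial markers were at 2.40 to 4.07 CPM in the controls, 1.43 to 2.37 CPM at 12 h and 3.51 to 6.07 CPM later. The epithelial sum was 4790 to 5160 CPM in the controls, 20100 to 20900 CPM at 12 h and 6760 to 13300 CPM later. This sum did not stand for each marker. Of the 7 markers, 7, 5, 1 and 4 were higher than the control at 12 h, 24 h, 48 h and 72 h (edgeR adjusted p under 0.05). The numbers lower were 0, 1, 2 and 2. Of all genes tested, 32.9%, 29.2%, 24.0% and 30.6% were higher and 36.5%, 29.6%, 21.8% and 31.0% lower. The median log2 fold change of the 7 epithelial markers against the control was 2.32 at 12 h and 1.26 at 24 h. It was -0.066 at 48 h and 0.72 at 72 h. The part of all these markers in the results was not tested. CPM was scaled by TMM factors, which were 0.862 to 0.898 in the 12 h libraries and 1.06 to 1.08 in the controls. In bulk RNA, a smaller share of cells in a cell cycle phase and less RNA per cell cannot be told apart.

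Of the 10 genes, 8 were called against the control at least once. The share of all genes tested that were called at least once was not counted, and it cannot be below the 69.4% called at 12 h alone. The directions differed between genes and between times. Changes were tested with the quasi-likelihood test of edgeR over all 16522 genes that passed the count filter, which all 10 genes did, and were called at a Benjamini-Hochberg adjusted p under 0.05. After 12 h, 4 of the 10 were higher than the control and 3 lower. At that time 69.4% of all genes tested were called, 32.9% higher and 36.5% lower. After 24 h, 2 were higher and 3 lower, against 58.8% of all genes called, 29.2% higher and 29.6% lower. After 48 h, 0 were higher and 3 lower, against 45.8% of all genes, 24.0% higher and 21.8% lower. The number higher at 48 h was also 0 at an unadjusted p under 0.05 and with DESeq2. After 72 h, 2 were higher and 2 lower, against 61.6% of all genes, 30.6% higher and 31.0% lower. The median log2 fold change of the 10 genes was 0.058, 0.0058, -0.094 and -0.040 at the 4 times, beside -0.054, -0.0071, 0.0099 and -0.0090 for all genes tested. Between successive times, 8 of the 10 were called from 12 h to 24 h, against 53.7% of all genes. From 24 h to 48 h it was 7, against 50.2%, and from 48 h to 72 h it was 5, against 35.7%. The counts were near those of all genes, so the account that follows is of single genes.

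**Figure D1:**
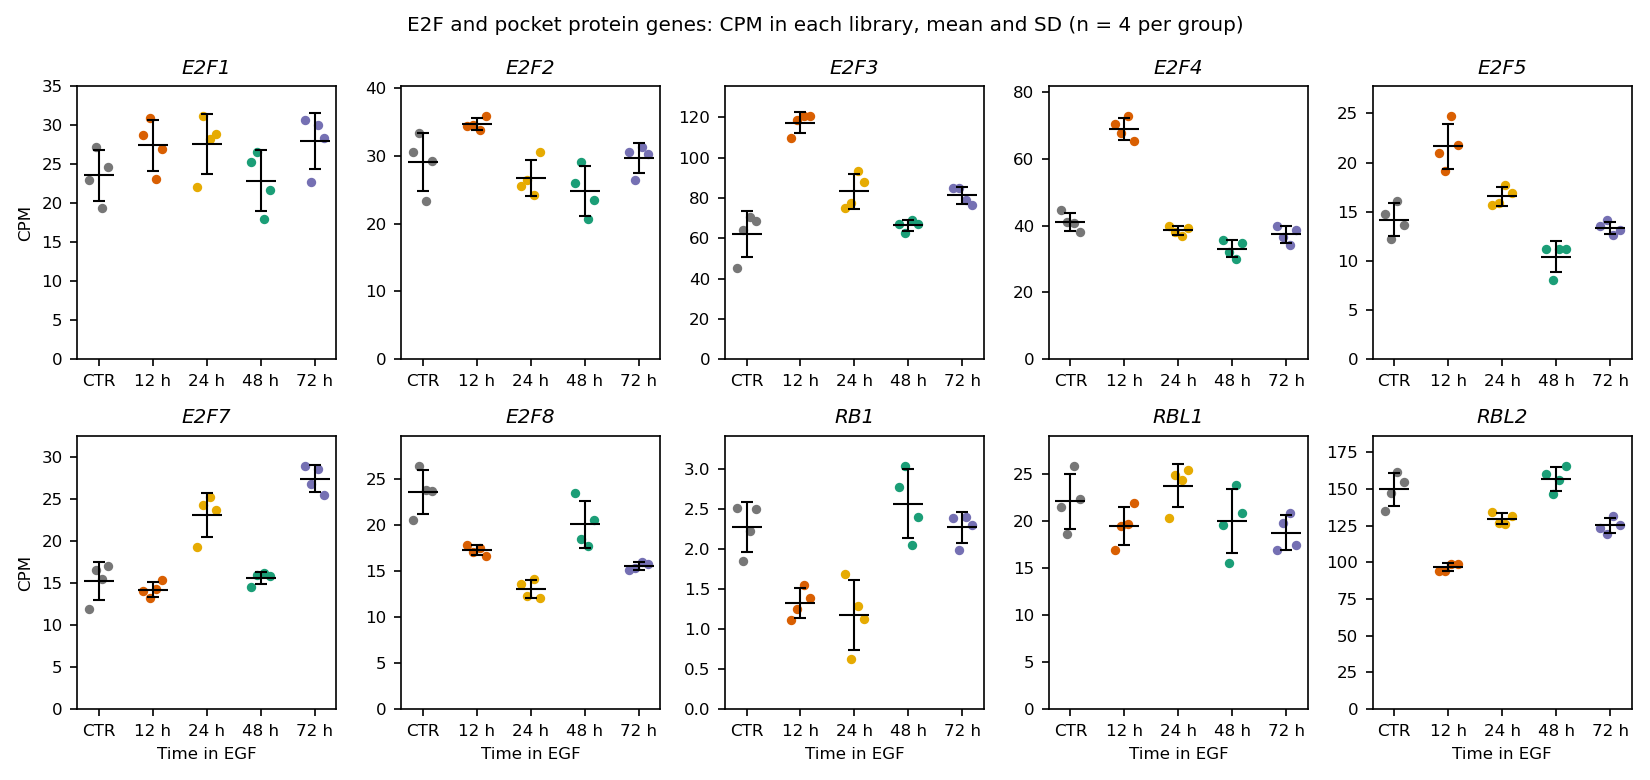
CPM of the 10 genes (y axis, linear from 0, a separate scale for each gene) in every library of the control (CTR) and the EGF groups (x axis), with points for libraries and black bars for mean and SD of 4 replicates. E2F3, E2F4 and E2F5 stood highest at 12 h, RBL2 lowest at 12 h, and E2F7 highest at 72 h.

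The activator E2F3 rose most of the 10 genes at 12 h. It lies on the plus strand at chr6:20401906-20493715 with 8 merged exons. In the controls, E2F3 was at 45.2, 64.2, 70.6 and 68.5 CPM in replicates 1 to 4. After 12 h it was at 109.9, 119, 120.4 and 120.4 CPM, after 24 h at 74.7, 77.6, 93.2 and 87.7 CPM. It then stood at 66.9, 62.4, 69.2 and 66.9 CPM after 48 h and at 84.7, 85.0, 78.8 and 76.4 CPM after 72 h. The 12 h, 24 h and 72 h libraries were all above the highest control, whereas the 48 h libraries lay inside the control range. The level after 12 h of EGF was 1.89 times that of the control (log2 fold change 0.92, SE 0.0992, edgeR adjusted p = 1.68e-08). The difference was 0.42 at 24 h (adjusted p = 8.14e-04) and 0.39 at 72 h (adjusted p = 0.00169). At 48 h it was 0.094 (95% interval -0.10 to 0.29, adjusted p = 0.461), and without control replicate 1, the lowest library, it was -0.031. E2F3 fell from 12 h to 24 h by 0.49 (adjusted p = 1.95e-04) and again to 48 h by 0.33 (adjusted p = 0.00823), the latter not called by library size alone (-0.17, adjusted p = 0.150). The rise from 48 h to 72 h was 0.29 (adjusted p = 0.0239). This last call was lost without EGF 48 h replicate 2 (0.26, adjusted p = 0.0607), EGF 72 h replicate 1 (0.28, adjusted p = 0.0559) or EGF 72 h replicate 2 (0.27, adjusted p = 0.0632), and by library size alone (0.20, adjusted p = 0.106).

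E2F2, another activator (minus strand, chr1:23506430-23531220), rose slightly at 12 h. It was at 30.5, 33.4, 23.3 and 29.2 CPM in the controls and at 34.5, 34.6, 33.9 and 35.8 CPM after 12 h, so all 4 treated libraries were above the highest control. The change was 1.19-fold (log2 0.25, SE 0.104, edgeR adjusted p = 0.0334), but -0.031 when libraries were scaled by their totals alone. The call was lost with upper quartile factors (0.088, adjusted p = 0.494), with offsets from the deposited normalized values (0.20, adjusted p = 0.116) and with at least 10 counts in every library (0.22, adjusted p = 0.0646). It was also lost without EGF 12 h replicate 2 (0.26, adjusted p = 0.0518), EGF 12 h replicate 4 (0.24, adjusted p = 0.0682), control replicate 3 (0.16, adjusted p = 0.142) or control replicate 4 (0.26, adjusted p = 0.0532). E2F2 then fell from 12 h to 24 h by 0.37 (adjusted p = 0.00439), with no overlap, a call lost by library size alone (-0.23, adjusted p = 0.0644) and with upper quartile factors (-0.26, adjusted p = 0.0572). Later libraries ranged from 20.7 to 31.3 CPM and overlapped the controls. The difference from the control was -0.12 at 24 h (adjusted p = 0.338), -0.23 at 48 h (adjusted p = 0.0747) and 0.028 at 72 h (adjusted p = 0.835). At 48 h it passed the threshold without EGF 48 h replicate 2 (-0.32, adjusted p = 0.0181) or control replicate 3 (-0.33, adjusted p = 0.00912). With offsets it was also called (-0.32, adjusted p = 0.0288), as was the 24 h difference by library size alone (-0.27, adjusted p = 0.0331). From 48 h to 72 h E2F2 differed by 0.26 (adjusted p = 0.0586). That step was called with the DESeq2 Wald test (adjusted p = 0.0339), DESeq2 size factors (0.0358), at least 10 counts in every library (0.0426) and a block for replicate number (0.0364). It was also called without EGF 48 h replicate 2 or EGF 72 h replicate 2.

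E2F1 (minus strand, chr20:33675683-33686404), the best known activator and itself an E2F target, was not called in any of the 4 comparisons with the control. Its 4 control libraries were at 23.0, 27.2, 19.4 and 24.7 CPM, and the 16 EGF libraries ranged from 17.9 to 31.1 CPM. Each EGF group overlapped the controls. The log2 difference was 0.22 at 12 h (95% interval -0.038 to 0.47), 0.23 at 24 h (-0.030 to 0.48), -0.047 at 48 h (-0.30 to 0.21) and 0.25 at 72 h (-0.0075 to 0.50), with edgeR adjusted p of 0.142, 0.142, 0.798 and 0.103. Changes of up to about these upper bounds were thus not resolved. Single libraries decided some of this, since the 24 h difference was called without EGF 24 h replicate 1 (0.32, adjusted p = 0.0413) and the 72 h difference without EGF 72 h replicate 2 (0.34, adjusted p = 0.0346) or control replicate 2 (0.32, adjusted p = 0.0450).

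The repressive E2F4 and E2F5 were both higher than the control at 12 h, lower at 48 h and not called at 24 h or 72 h. E2F4 lies at chr16:67192169-67198918 (plus strand). Its control libraries were at 44.7, 41.1, 40.8 and 38.1 CPM, and its 12 h libraries at 70.4, 67.6, 72.7 and 65.2 CPM. After 24 h it was at 39.99, 38.1, 36.9 and 39.2 CPM, and after 48 h at 35.8, 32.0, 29.9 and 34.8 CPM. After 72 h it was at 39.8, 36.7, 34.1 and 38.8 CPM. The 12 h libraries stood far above all controls and the 48 h libraries all below them, while the 24 h and 72 h groups overlapped the controls. At 12 h its level was 1.68 times the control (log2 0.74, SE 0.0702, edgeR adjusted p = 1.67e-09), and it fell by 0.84 between 12 h and 24 h (adjusted p = 1.60e-09). By library size alone the 12 h value was 0.46. At 48 h it was 1.24-fold lower than the control (log2 -0.31, SE 0.0712, adjusted p = 8.65e-04). The differences at 24 h (-0.093, adjusted p = 0.269) and 72 h (-0.14, adjusted p = 0.0933) were not called. By library size alone both were called (-0.24, adjusted p = 0.00667, and -0.22, adjusted p = 0.0115). The decrease from 24 h to 48 h (-0.22, adjusted p = 0.0128) was lost without EGF 48 h replicate 3 (-0.18, adjusted p = 0.0547), with scaling by library size alone (-0.067, adjusted p = 0.462) and with upper quartile factors (-0.16, adjusted p = 0.0788). From 48 h to 72 h E2F4 differed by 0.18 (adjusted p = 0.0601), which passed the threshold without EGF 48 h replicate 1 (0.21, adjusted p = 0.0378) or EGF 72 h replicate 3 (0.22, adjusted p = 0.0322). It also passed with the DESeq2 Wald test (0.20, adjusted p = 0.0176) and DESeq2 size factors (0.20, adjusted p = 0.0338). The same held with at least 10 counts in every library (0.19, adjusted p = 0.0354) and with a block for replicate number (0.17, adjusted p = 0.0469).

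E2F5 lies at chr8:85177225-85217158 (plus strand), and 18.6% of its exonic bases are shared with the opposite-strand genes AC011773.1 and C8orf59, whose reads could not be told apart where strand was ignored. E2F5 was at 14.8, 12.2, 16.1 and 13.6 CPM in the controls and at 21.0, 19.1, 24.7 and 21.8 CPM after 12 h. It was at 15.7, 15.9, 17.7 and 16.9 CPM after 24 h, at 11.2, 8.07, 11.2 and 11.2 CPM after 48 h and at 13.5, 14.1, 12.7 and 13.1 CPM after 72 h. Again the 12 h group lay above and the 48 h group below all controls, with overlap at 24 h and 72 h. E2F5 reached 1.53 times the control at 12 h (log2 0.61, SE 0.104, edgeR adjusted p = 1.60e-05) and was 1.36-fold lower at 48 h (log2 -0.44, SE 0.108, adjusted p = 0.00171). By library size alone the 12 h value was 0.32. The 24 h difference of 0.22 was not called (adjusted p = 0.0759) but was without control replicate 3 (0.29, adjusted p = 0.0260), and the 72 h difference was -0.086 (adjusted p = 0.5001). E2F5 decreased by 0.39 from 12 h to 24 h (adjusted p = 0.00317, or -0.25 and 0.0513 by library size alone) and by 0.66 from 24 h to 48 h (adjusted p = 2.15e-05). The increase of 0.36 from 48 h to 72 h (adjusted p = 0.0133) was lost without EGF 48 h replicate 2, the lowest library (0.25, adjusted p = 0.0603), with offsets (0.25, adjusted p = 0.0804) and by library size alone (0.27, adjusted p = 0.0590). Over all 20 libraries the log2 CPM of E2F4 and E2F5 had a Pearson r of 0.836, which describes libraries that share time points and scaling.

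The atypical E2F7 and E2F8, which often act as a pair, moved apart. E2F7 lies at chr12:77021247-77065580 (minus strand). It was at 12.0, 16.6, 15.5 and 17.1 CPM in the controls and at 14.04, 13.2, 14.3 and 15.4 CPM after 12 h. After 24 h it was at 19.3, 24.2, 25.3 and 23.7 CPM, and after 48 h at 14.6, 16.0, 16.1 and 15.8 CPM. After 72 h it reached 28.9, 26.8, 28.5 and 25.4 CPM. All 24 h and all 72 h libraries exceeded the highest control, whereas the 12 h and 48 h libraries lay inside the control range. E2F7 rose 1.51-fold by 24 h (log2 0.60, SE 0.0995, edgeR adjusted p = 1.74e-05) and stood at 1.80 times the control by 72 h (log2 0.84, SE 0.0989, adjusted p = 8.94e-08). The differences were -0.10 at 12 h (adjusted p = 0.378) and 0.035 at 48 h (adjusted p = 0.805, and -0.065 without control replicate 1). At 12 h E2F7 was called lower by library size alone (-0.39, adjusted p = 0.00139) and with upper quartile factors (-0.27, adjusted p = 0.0232). The course between was not steady. E2F7 rose by 0.70 from 12 h to 24 h (adjusted p = 3.90e-06), fell by 0.56 to 48 h (adjusted p = 5.92e-05) and rose by 0.81 to 72 h (adjusted p = 7.99e-07), without overlap at any step.

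E2F8 (minus strand, chr11:19224063-19241620) was the only 1 of the 10 genes called at all 4 times, each time lower than the control. Its control libraries were at 20.5, 26.4, 23.8 and 23.7 CPM. It was at 17.9, 17.1, 17.6 and 16.7 CPM after 12 h and at 13.6, 12.3, 14.1 and 12.1 CPM after 24 h. After 48 h it was at 23.4, 18.5, 17.8 and 20.5 CPM, and after 72 h at 15.1, 15.3, 16.0 and 15.8 CPM. No library of the 12 h, 24 h or 72 h groups reached the lowest control, while 3 of the 4 libraries at 48 h lay below it and replicate 1 lay inside the control range. E2F8 was 1.37-fold lower at 12 h (log2 -0.45, SE 0.0893, edgeR adjusted p = 9.93e-05), 1.82-fold lower at 24 h (log2 -0.86, SE 0.0913, adjusted p = 2.12e-08) and 1.52-fold lower at 72 h (log2 -0.61, SE 0.0901, adjusted p = 3.18e-06). The 48 h call was weak (log2 -0.24, adjusted p = 0.0296). It was lost without EGF 48 h replicate 2 (-0.20, adjusted p = 0.0870), EGF 48 h replicate 3 (-0.18, adjusted p = 0.113), control replicate 2 (-0.18, adjusted p = 0.102) or control replicate 4 (-0.24, adjusted p = 0.0548). It was also lost under 5 other settings, with at least 10 counts in every library (-0.20, adjusted p = 0.0640), without the filter (-0.24, adjusted p = 0.0735), with offsets (-0.32, adjusted p = 0.0676), in the 8 libraries alone (-0.24, adjusted p = 0.121) and with upper quartile factors (-0.22, adjusted p = 0.0543). The calls at 12 h, 24 h and 72 h were kept under every alternative and left-out library. E2F8 fell by 0.41 from 12 h to 24 h (adjusted p = 6.99e-04), rose by 0.62 to 48 h (adjusted p = 6.24e-06) and fell by 0.37 to 72 h (adjusted p = 0.00269). At each of the 3 steps, E2F8 and E2F7 were called in opposite directions. With offsets from the deposited normalized values the directions were still opposite, but the E2F8 calls from 12 h to 24 h (-0.17, adjusted p = 0.314) and from 48 h to 72 h (-0.18, adjusted p = 0.357) and the E2F7 call from 24 h to 48 h (-0.56, adjusted p = 0.0514) were lost, so the opposite calls held at none of the 3 steps.

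**Figure D2:**
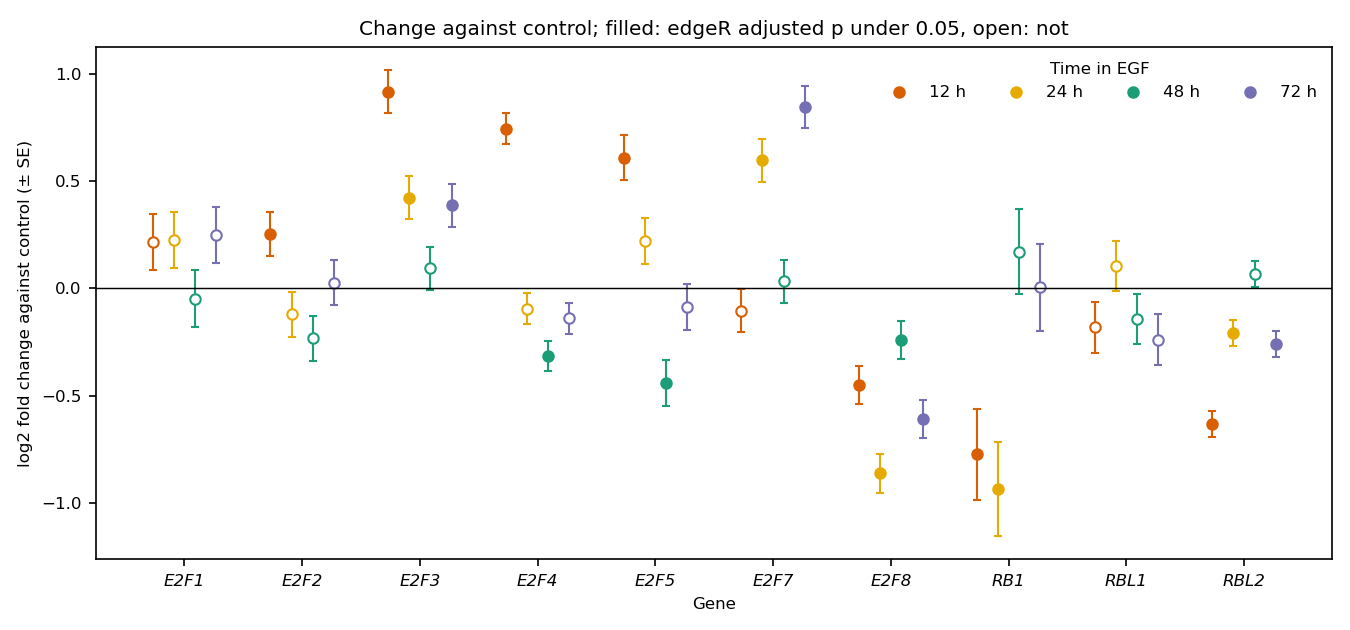
Log2 fold change against the control (y axis, error bars SE from edgeR) of each gene (x axis) at each of the 4 EGF times, with filled points where the adjusted p was under 0.05. E2F8 is filled and below 0 at all 4 times, E2F1 and RBL1 are open throughout, and E2F4 and E2F5 are filled above 0 at 12 h and below 0 at 48 h.

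The mRNA of RBL2 (plus strand, chr16:53433977-53491649), which encodes the pocket protein p130, fell at 12 h, opposite to the mRNA of E2F4 and E2F5. Protein levels and complexes were not measured. The opposite-strand genes AC007342.6 and AKTIP cover 18.2% of its exonic bases. RBL2 was at 135, 147, 161 and 155 CPM in the controls and at 94.4, 94.3, 99.1 and 98.9 CPM after 12 h. It was at 134, 127, 126 and 132 CPM after 24 h, at 159.9, 146, 156 and 166 CPM after 48 h and at 124, 119, 132 and 126 CPM after 72 h. The 12 h libraries were clearly below all controls. The 24 h and 72 h libraries also lay below the lowest control, the former narrowly, and those of 48 h overlapped the controls. RBL2 was 1.55-fold lower at 12 h (log2 -0.63, SE 0.0611, edgeR adjusted p = 2.65e-09), -0.21 on the log2 scale at 24 h (adjusted p = 0.00549) and -0.26 at 72 h (adjusted p = 7.53e-04). The difference at 48 h was 0.069 (adjusted p = 0.372). It regained 0.42 from 12 h to 24 h (adjusted p = 3.89e-06) and 0.27 to 48 h (adjusted p = 6.24e-04), and lost 0.33 to 72 h (adjusted p = 1.75e-04). The Pearson r of RBL2 with E2F4 over the 20 libraries was -0.842 and with E2F3 -0.823, given as a description.

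RBL1, the gene of p107 and a known E2F target (minus strand, chr20:36996349-37095995), was not called against the control at any time with TMM factors and all 20 libraries. It was at 21.5, 18.6, 25.8 and 22.3 CPM in the controls and between 15.6 and 25.4 CPM in the 16 EGF libraries, and every EGF group overlapped the controls. The log2 difference was -0.18 at 12 h (95% interval -0.41 to 0.053), 0.10 at 24 h (-0.13 to 0.34), -0.14 at 48 h (-0.37 to 0.090) and -0.24 at 72 h (-0.47 to -0.0039), with edgeR adjusted p of 0.182, 0.461, 0.345 and 0.0881. Without control replicate 2 the 72 h difference was called (-0.31, adjusted p = 0.0273). The 12 h difference was called by library size alone (-0.46, adjusted p = 0.00164) and with upper quartile factors (-0.34, adjusted p = 0.00783). Both scalings also called the 72 h difference (-0.31, adjusted p = 0.0305, and -0.26, adjusted p = 0.0446). The increase from 12 h to 24 h (0.29, adjusted p = 0.0476) had overlapping groups and was lost without EGF 12 h replicate 1, 2 or 3 or EGF 24 h replicate 2, 3 or 4, with log2 values of 0.22 to 0.29 and adjusted p of 0.0770 to 0.160. It was also lost with the DESeq2 Wald test (0.26, adjusted p = 0.0914), DESeq2 size factors (0.27, adjusted p = 0.0677), no filter (0.25, adjusted p = 0.1003) and offsets (0.36, adjusted p = 0.173). Between 24 h and 48 h RBL1 differed by -0.25 (adjusted p = 0.0881), which was called without EGF 24 h replicate 1 (-0.32, adjusted p = 0.0386) or EGF 48 h replicate 3 (-0.35, adjusted p = 0.0212).

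RB1, the retinoblastoma gene (plus strand, chr13:48303726-48599436, 30 merged exons), was counted at a trace level in every library. It had 11 to 62 counts per library. RB1 was at 2.51, 1.85, 2.22 and 2.50 CPM in the controls, at 1.11, 1.25, 1.55 and 1.39 CPM after 12 h and at 1.68, 0.622, 1.28 and 1.12 CPM after 24 h. It was at 2.77, 3.03, 2.05 and 2.40 CPM after 48 h and at 2.39, 1.99, 2.40 and 2.30 CPM after 72 h. All libraries of 12 h and 24 h lay below the lowest control and those of 48 h and 72 h overlapped the controls. RB1 was 1.71-fold lower at 12 h (log2 -0.77, SE 0.214, edgeR adjusted p = 0.00265) and 1.91-fold lower at 24 h (log2 -0.93, SE 0.218, adjusted p = 7.55e-04), and rose by 1.11 from 24 h to 48 h (adjusted p = 1.81e-04). The differences at 48 h (0.17, adjusted p = 0.505) and 72 h (0.0062, adjusted p = 0.981) were not called. The summed counts behind these values were 198 in the controls (exact 95% Poisson interval 171 to 228), 102 after 12 h (83.2 to 124), 88 after 24 h (70.6 to 108), 219 after 48 h (191 to 250) and 176 after 72 h (151 to 204). These intervals cover counting error only. Whether the reads come from intact RB1 mRNA was not measured.

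The genes around RB1 were examined after its counts had been seen. Of 14 other protein-coding genes within 1 Mb of its ends, 10 had at least 3 counts in every library. ITM2B, whose start lies at -71.1 kb from that of RB1, had a median of 230.0 CPM and reached 317 CPM, and FNDC3A, the first well-counted gene beyond it, at 51.8 to 106 CPM. The genes between behaved differently. LPAR6, which lies within the RB1 gene on the other strand (chr13:48389567-48444704), had 0 counts in all 20 libraries, as did CYSLTR2 (chr13:48653711-48711226), which among 403058855 counts allows a level of up to 0.00744 CPM. RCBTB2 (chr13:48488959-48533256), which also lies within the RB1 gene on the other strand, had 0 to 6 counts per library. LPAR6, RCBTB2 and CYSLTR2 were thus at or near 0 between the better counted ITM2B and FNDC3A. RB1 itself was low but not at 0, with a median of 2.02 CPM, or 0.313 CPM per kb of merged exon. CDADC1, beyond FNDC3A, had a median of 3.08 CPM, or 0.798 CPM per kb. MLNR, also beyond FNDC3A, had at most 1 count per library, so a level near 0 also occurred outside this stretch. Genome copy number was not measured.

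**Figure D3:**
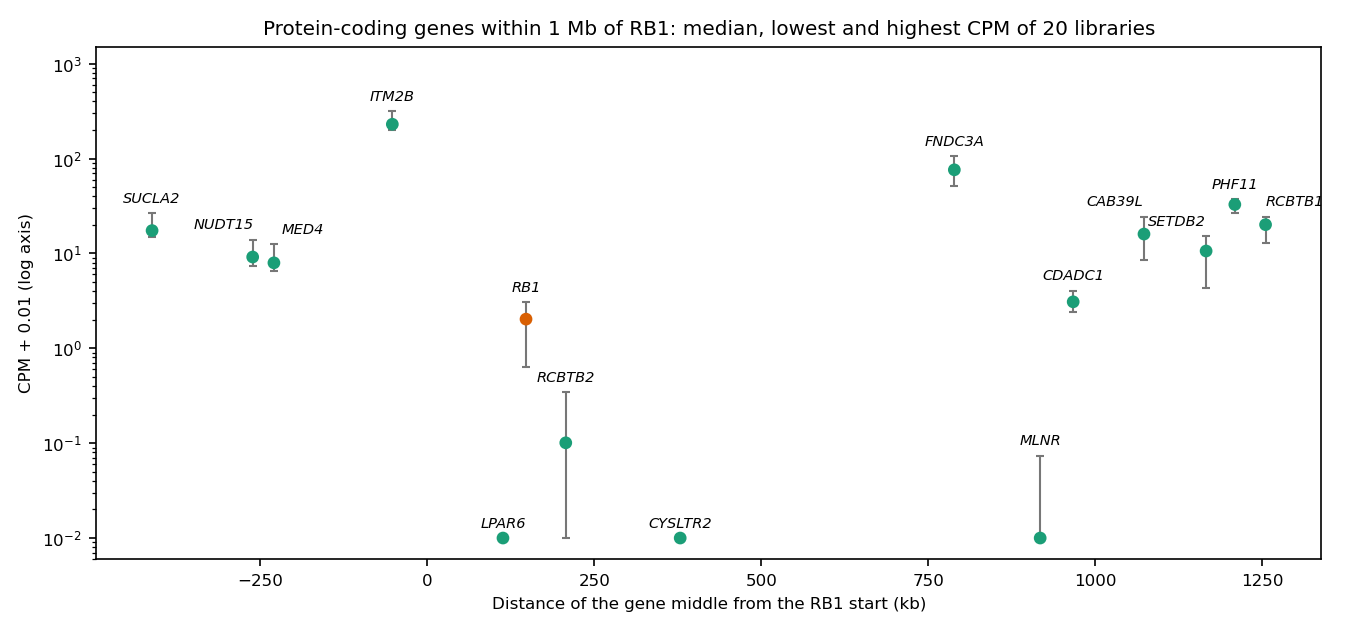
Level of protein-coding genes within 1 Mb of RB1 (y axis, CPM + 0.01 on a log axis, point for the median and bar from the lowest to the highest of 20 libraries) against the distance of each gene's middle from the RB1 start in kb (x axis). RB1 (orange) has a median of 2.02 CPM, with ITM2B at 230.0 CPM on its left. LPAR6, which lies within the RB1 gene, and CYSLTR2 are at 0.

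Levels were compared between genes per kb of merged exon. On this scale RBL2 was the leading pocket protein transcript in every group, at 20.4 ± 1.53 CPM per kb in the controls (SD, n = 4), followed by RBL1 at 3.70 ± 0.495 and RB1 at 0.352 ± 0.0482. The group mean of RBL2 was 4.04 to 6.40 times that of RBL1 and 48.6 to 97.2 times that of RB1. Among the E2Fs, E2F3 (12.0 ± 2.24 CPM per kb), E2F4 (11.5 ± 0.762) and E2F1 (9.41 ± 1.30) were the highest in the controls. E2F8 (5.71 ± 0.579) and E2F2 (5.33 ± 0.776) came next, and E2F7 (2.42 ± 0.365) and E2F5 (2.39 ± 0.2803) were lowest. At 12 h E2F3 (22.7 ± 0.977) and E2F4 (19.3 ± 0.914) both exceeded RBL2 (13.2 ± 0.370). The level of E2F7 per kb (4.35 ± 0.257) was above that of E2F8 (3.75 ± 0.1005) at 72 h, the reverse of the controls.

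Group means spanned little more than the replicate spread for E2F1 and RBL1. For E2F1 the order was 72 h, 24 h, 12 h, control and 48 h, with all neighbours overlapping and a highest mean 1.22 times the lowest. For RBL1 the order was 24 h, control, 48 h, 12 h and 72 h, again with all neighbours overlapping and a ratio of 1.27. The span was 1.89 for E2F3, 2.08 for E2F4, 2.08 for E2F5, 1.93 for E2F7, 1.81 for E2F8, 2.18 for RB1 and 1.62 for RBL2. E2F4 at 12 h was separate from every other group, which overlapped their neighbours in order. For E2F7, 72 h and 24 h were separate from each other and from the remaining groups. For RBL2, 48 h overlapped the control, 24 h overlapped 72 h, and 12 h stood alone at the bottom.

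Ratios of gene pairs within a library do not depend on the scaling between libraries. A total of 3 pairs at 4 times gave 12 exact two-sided permutation tests of the log2 ratio, where 4 libraries against 4 cannot go below p = 0.0286. None passed after Benjamini-Hochberg adjustment, and that smallest p corresponds to an adjusted value of 0.0686 here. E2F8 counts were 1.39 to 1.72 times those of E2F7 in the controls, 1.08 to 1.30 times at 12 h, 0.509 to 0.706 times at 24 h, 1.10 to 1.61 times at 48 h and 0.522 to 0.621 times at 72 h. E2F8 was thus the more abundant by counts in every control, 12 h and 48 h library, and E2F7 in every 24 h and 72 h library. The log2 ratio was -1.46 from the control at both 24 h and 72 h, and -0.35 at 12 h, each without overlap and with exact p = 0.0286. At 48 h it was -0.28 (exact p = 0.114).

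RBL1 counts were 0.127 to 0.160 times those of RBL2 in the controls and 0.179 to 0.221 times at 12 h. The groups did not overlap, with a log2 difference of 0.45 (exact permutation p = 0.0286, adjusted 0.0686). The difference was 0.31 at 24 h (exact p = 0.0857), -0.22 at 48 h (exact p = 0.143) and 0.025 at 72 h (exact p = 0.886). The ratio of the activator E2F1 to the repressor E2F4 was 0.477 to 0.661 in the controls and 0.318 to 0.457 at 12 h, again without overlap, a log2 difference of -0.53 (exact p = 0.0286, adjusted 0.0686). It was above the control mean at the later times, by 0.32, 0.27 and 0.39, with overlap each time (exact p = 0.143, 0.2 and 0.0857).

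**Figure D4:**
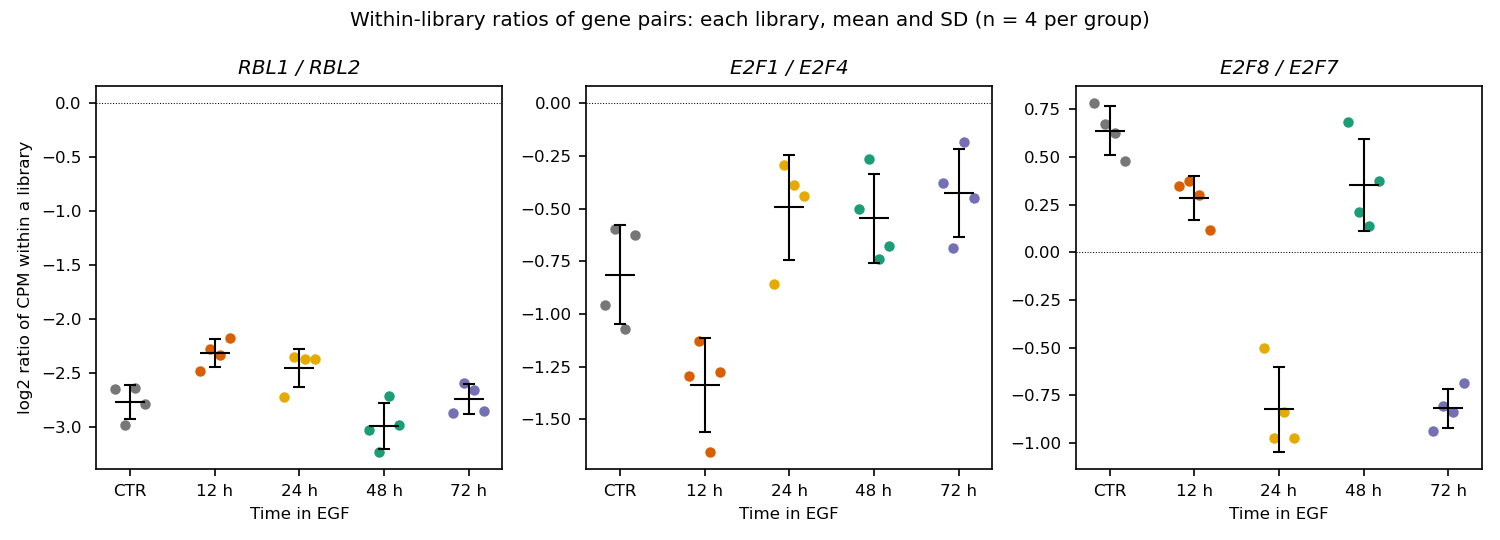
Log2 ratio of CPM within each library (y axis) for RBL1 over RBL2, E2F1 over E2F4 and E2F8 over E2F7 in the control and the EGF groups (x axis), with black bars for mean and SD of 4 replicates. The E2F8 to E2F7 ratio lies above 0 in every control, 12 h and 48 h library and below 0 in every 24 h and 72 h library.

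Other genes of the pathway were summarised by list. Of 11 partners of the E2Fs (DP proteins, E2F6 and MuvB subunits with their late partners MYBL2 and FOXM1), 10 were tested, and TFDP3 had too few counts. At 12 h, 4 were higher and 3 lower, where 32.9% and 36.5% of all genes were, and at 24 h, 1 was higher and 3 lower, beside 29.2% and 29.6%. At 48 h, 0 were higher and 4 lower, beside 24.0% and 21.8%, and at 72 h, 2 were higher and 6 lower, beside 30.6% and 31.0%. The median log2 fold change was 0.049, 0.012, -0.19 and -0.30 at the 4 times, beside -0.054, -0.0071, 0.0099 and -0.0090 for all genes, and the sign at 12 h (-0.24 to 0.18) and 24 h (-0.13 to 0.083) depended on the alternative. TFDP2, which encodes a DP partner, fell at 12 h from 66.4 ± 1.59 to 34.9 ± 1.17 CPM (SD, n = 4, log2 -0.93, edgeR adjusted p = 5.27e-13) and was -0.34 from the control at 72 h (adjusted p = 8.56e-06). FOXM1, an activator of G2/M genes, was lower at 12 h by -0.60 (adjusted p = 7.24e-05) and at 72 h by -1.35 (adjusted p = 8.67e-10). LIN37, a MuvB subunit needed for repression by DREAM, was higher by 0.55 at 12 h (adjusted p = 2.25e-04) and 0.83 at 72 h (adjusted p = 1.62e-06). At 72 h MYBL2 was -0.75 (adjusted p = 1.33e-07) and the histone-binding RBBP4 -0.42 (adjusted p = 4.33e-07), while their 12 h values of 0.14 and -0.041 were not called.

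Among 16 cyclins, CDKs and CDK inhibitors, which set the phosphorylation of pocket proteins, 15 were tested and CCND2 was not. At 12 h, 10 were higher and 4 lower (median 0.46, all genes -0.054), and at 24 h, 8 were higher and 4 lower (median 0.44, all genes -0.0071). At 48 h, 4 were higher and 3 lower (median 0.035, all genes 0.0099), and at 72 h, 8 were higher and 3 lower (median 0.40, all genes -0.0090). Of all genes, 32.9%, 29.2%, 24.0% and 30.6% were higher at these times and 36.5%, 29.6%, 21.8% and 31.0% lower. By library size alone the number higher at 12 h was 6 and the median 0.18. CDKN1A, the CDK inhibitor p21, rose from 67.0 ± 9.54 to 593 ± 8.75 CPM at 12 h (log2 3.14, edgeR adjusted p = 3.74e-16) and was 2.81 above the control at 72 h (adjusted p = 2.23e-15). CDK6, a G1 kinase for pocket proteins, rose by 2.56 at 12 h (adjusted p = 1.19e-15) and by 2.42 at 72 h (adjusted p = 3.33e-15). CDKN2C, the CDK4 and CDK6 inhibitor p18, moved the other way, from 24.8 ± 1.40 to 3.58 ± 0.546 CPM at 12 h (log2 -2.79, adjusted p = 3.18e-15), and was -1.23 at 72 h (adjusted p = 1.61e-09). The S-phase cyclin CCNA2 was -0.88 at 12 h (adjusted p = 1.73e-09) and -1.40 at 72 h (adjusted p = 8.42e-13).

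Known targets were taken as a G1/S and a G2/M list. Of 20 known G1/S targets of E2F, 7 were higher and 8 lower at 12 h, 7 and 4 at 24 h, 2 and 11 at 48 h, and 5 and 10 at 72 h, with medians of -0.068, 0.057, -0.21 and -0.18, the 24 h median being below 0 under some alternatives (-0.087 to 0.10). The medians of all genes were -0.054, -0.0071, 0.0099 and -0.0090, and the shares of all genes called higher and lower were 32.9% and 36.5% at 12 h, 29.2% and 29.6% at 24 h, 24.0% and 21.8% at 48 h, and 30.6% and 31.0% at 72 h. The phosphatase gene CDC25A was 1.42 at 12 h (edgeR adjusted p = 4.06e-13) and 0.29 at 72 h (adjusted p = 0.00554), and the flap endonuclease gene FEN1 was 0.58 and 0.32 (adjusted p = 7.34e-07 and 0.00121). RRM2, a ribonucleotide reductase subunit, was -0.35 at 12 h and -0.59 at 72 h (adjusted p = 3.18e-05 and 2.44e-08). The replication factor gene MCM10 was -0.15 at 12 h (adjusted p = 0.128) and -0.83 at 72 h (adjusted p = 3.48e-08). Of 14 G2/M targets of DREAM, none was called higher at any time in the edgeR fit, and 11, 10, 8 and 14 were lower at the 4 times, with medians of -0.81, -0.56, -0.31 and -1.32. This stands beside 36.5%, 29.6%, 21.8% and 31.0% of all genes called lower. Under the alternatives 0 were higher at 12 h, 24 h and 72 h and at most 1 at 48 h. Cyclin B2 (CCNB2) was -1.47 at both 12 h and 72 h (adjusted p = 1.23e-14 and 1.44e-14). The kinesin gene KIF20A was -1.60 and -1.36 (adjusted p = 5.87e-14 and 1.29e-12), and the kinetochore gene CENPF -1.06 and -1.75 (adjusted p = 4.59e-11 and 9.84e-15). TOP2A, which encodes topoisomerase II alpha, was -0.88 and -1.63 (adjusted p = 6.03e-10 and 1.50e-14).

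**Figure D5:**
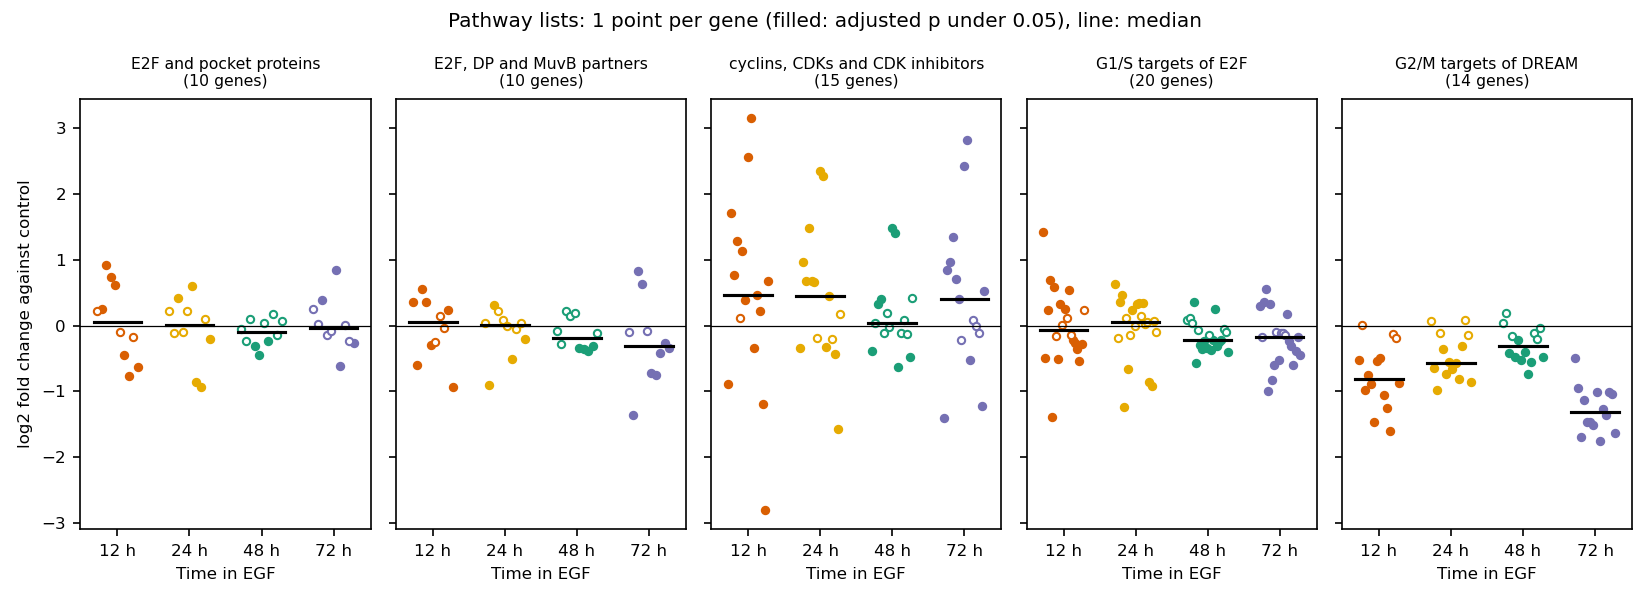
Log2 fold change against the control (y axis) at the 4 EGF times (x axis) for the 10 E2F and pocket protein genes and for 4 lists of their partners, regulators and targets, with a point for each gene tested, filled where the adjusted p was under 0.05, and a line at the median. All 14 G2/M targets lie below 0 at 72 h, whereas the E2F and pocket protein genes spread to both sides of 0 at every time.

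For 5 of the genes, the other genes with the most similar profile were taken by the Pearson r of log2(CPM + 0.5) over the 20 libraries, among genes with a mean of at least 1 CPM. These values are descriptive, since the libraries share time points and scaling. The closest profiles to E2F1 were SAMD10 (r = 0.806), F8A3 (0.805), which has near-identical copies that can share reads, and PTPN23 (0.798). For E2F5 they were SWAP70 (0.977), WDR36 (0.972) and DDX18 (0.966), and for E2F8 they were CAPN13 (0.948), SELENBP1 (0.942) and UBXN11 (0.934). For RBL1 they were STAG2 (0.889), NUDT4 (0.870) and TMEM65 (0.866), and for RBL2 they were PDK3 (0.971), RBM26-AS1 (0.971) and HLCS (0.968). E2F1 had the lowest best match and E2F5 the highest of these 5.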

How the data were processed

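Poly(A) RNA of 20 MDA-MB-468 libraries was extracted with RNeasy and turned into single-end sequencing libraries by the Corall mRNA protocol of Lexogen. The build was hg38 and the processing tool DESeq2, per the submitters' processing notes, and the study ran DESeq2 through SARTools. The aligner, counter, annotation, use of strand and use of molecular identifiers are not given in the sources used here. The authors deposited 10 tables of the same 60271 genes. The deposited values were read as estimated counts per gene and library that had been rounded to whole numbers, since the normalized columns differ from them by a factor that varies between genes. Those normalized values, deposited by the authors as whole numbers and treated here as a score, were used only as offsets in an alternative. Columns of the authors' own comparisons (fold changes and p-values) were not used.

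Genes were filtered with filterByExpr, leaving 16522, and scaled with TMM factors in edgeR 4.0.16 (R 4.3.3). All 20 libraries were fitted with a mean per group by glmQLFit with robust estimation and tested two-sided with glmQLFTest, and p-values were adjusted by Benjamini-Hochberg over these genes. The fit and its contrasts were checked on simulated counts. Intervals of log2 fold changes are estimates with normal 95% limits, which are narrower than the edgeR test implies. An interval can thus exclude 0 without a p under 0.05, as for RBL1 at 72 h (edgeR unadjusted p = 0.0581). Ratios were tested by exact permutation (scipy) after adding 0.5 to each count. Exon lengths and positions came from GENCODE 29 on GRCh38, in which 58036 of the gene identifiers were found. Promoters came from RefSeq on GRCh38.p14. The E2F and pocket protein genes and all lists were chosen with earlier results of these data known. All 10 genes are described. From each list the 3 genes with the smallest adjusted p at 12 h and the 3 at 72 h are named, apart from a gene that is not reported here. The comparison of 48 h with 12 h and the genes around RB1 were added after seeing the data. Alternatives were other scalings, DESeq2 1.42.0 with a Wald test, other count filters, the 8 libraries of a comparison alone, a replicate block, a prior count of 2, offsets, and leaving out each library.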

Additional observations from a re-analysis of the deposited data

Results flagged for a closer look

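E2F4 and E2F5 were called higher than the control at 12 h and lower at 48 h, so the times themselves were compared, a choice made after seeing the data. From 12 h to 48 h the log2 fold change was -1.06 for E2F4 (SE 0.0710, edgeR adjusted p = 5.53e-12) and -1.05 for E2F5 (SE 0.107, adjusted p = 6.49e-09), and every 48 h library lay below every 12 h library for both genes. A single library stood apart from the other 3 of its group in 2 of 50 groups of 4 libraries, where about 1 in 20 would be flagged by chance. E2F3 in EGF 12 h replicate 1 was at 109.87 CPM, with the next library at 118.65 CPM, and all 4 were above the controls. E2F5 in EGF 48 h replicate 2 was at 8.0693 CPM, with the next at 11.169 CPM, and without that library the call from 48 h to 72 h was lost (0.25, adjusted p = 0.0603).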

How the results depend on the processing

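Of 39 calls for the 10 genes over 7 comparisons, 27 were kept under every alternative and every left-out library, and 12 were lost at least once. With scaling by library size alone the median log2 fold change of all genes moved to -0.337 at 12 h, -0.150 at 24 h, 0.182 from 12 h to 24 h, 0.174 from 24 h to 48 h and -0.100 from 48 h to 72 h, and with upper quartile factors to -0.216 at 12 h and 0.156 from 12 h to 24 h. The share of calls that were higher was then 30.2% at 12 h (47.4% with TMM), 36.3% at 24 h (49.6%), 68.6% from 12 h to 24 h (51.9%), 71.8% from 24 h to 48 h (51.5%) and 33.8% from 48 h to 72 h (50.0%) by library size, 37.2% and 66.1% for the upper quartile comparisons, and 39.2% from 12 h to 24 h with offsets from the deposited normalized values. By library size alone the genes called lower numbered 5 at 12 h, 5 at 24 h, 4 at 72 h, 3 from 12 h to 24 h and 2 from 24 h to 48 h, and those called higher from 48 h to 72 h numbered 1. With upper quartile factors 5 were lower at 12 h, and by either scaling E2F7 and RBL1 were the genes added at 12 h. From 48 h to 72 h, 5 were higher with the DESeq2 Wald test, with DESeq2 size factors, with at least 10 counts in every library and with the replicate block, and 1 was lower with the offsets, a fit that left out RB1 for its low counts. The cause was not tested. The direction reversed by library size for E2F1 at 12 h (-0.066), E2F2 at 12 h (-0.031), at 72 h (-0.049) and from 24 h to 48 h (0.042), RB1 at 72 h (-0.070, and -0.016 with upper quartile factors) and RBL1 at 24 h (-0.039). With offsets it reversed for E2F2 (-0.056) and RBL1 (0.070) at 72 h, E2F7 at 48 h (-0.016) and RBL1 from 48 h to 72 h (0.19). E2F1 from 12 h to 24 h was -0.013 with the DESeq2 Wald test, -0.011 with DESeq2 size factors and -0.030 without the filter. Of these, only E2F2 at 12 h was a call. Leaving out 1 library reversed only differences that were not called, with ranges of -0.13 to 0.058 for E2F1 at 48 h, -0.067 to 0.10 for E2F1 from 12 h to 24 h, -0.067 to 0.10 for E2F2 at 72 h, -0.031 to 0.16 for E2F3 at 48 h, -0.065 to 0.090 for E2F7 at 48 h, -0.083 to 0.066 for RB1 at 72 h, -0.39 to 0.042 for RB1 from 12 h to 24 h and -0.20 to 0.0023 for RBL1 from 48 h to 72 h. Deviations of same-numbered replicates had a median r of 0.0192 over 40 pairs (-0.374 to 0.568), with 12 pairs over 0.1. Replicates of other numbers had a median r of -0.00827 over 120 pairs (-0.53 to 0.461), with 23 pairs over 0.1. Both medians were near 0, and the numbers were not taken to pair the samples. The replicate block kept all 39 calls and added 4, which were E2F5 at 24 h, RBL1 from 24 h to 48 h, and E2F2 and E2F4 from 48 h to 72 h. Depth limits RB1 most, with 11 to 62 counts per library.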
